A study of Xenopus laevis with 15 samples.

Results

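The genes described here are those of the retinal visual cycle, 10 genes named rpe65, lrat, rdh5, rgr, rlbp1, rdh10, rbp3, rdh8, rdh12 and stra6. They were chosen by name: a row of the count table belonged to the group where the symbol in the authors' deposited table, without its final .L or .S, was 1 of the 10. This gave 9 rows of 37018, covering 7 of the genes: rpe65.L, rpe65.S, lrat.L, rdh5.L, rgr.L, rlbp1.L, rdh10.L, rdh10.S and rbp3.L. The letters mark the 2 copies (homeologs) that each gene can have in Xenopus laevis, a frog whose genome arose from a hybrid of 2 ancestral species. The row called rpe65.S here stands in the authors' deposited table as rpe65 with no letter, and RefSeq (gene table for Xenopus_laevis_v10.1) names it rpe65.S. RefSeq also gives the names rdh5.S, rgr.S, rlbp1.S, rdh8.L, rdh8.S, stra6.L and stra6.S to 7 further rows that the authors' deposited table lists under placeholder names. These 7 rows are given with the others and counted apart. The gene rdh12 is not analysed here. All 9 rows and all 7 further rows passed the filter on low counts, which left 27060 genes for testing.

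The visual cycle restores the light-sensitive chromophore of the opsins. Light turns 11-cis-retinal, bound to an opsin in the photoreceptor, into the all-trans form, which is reduced to a retinol, carried to the retinal pigment epithelium, esterified, isomerized and oxidized back to 11-cis-retinal. The epithelium is a pigmented layer behind the photoreceptors, and Müller glia in the neural retina hold some of the same proteins.

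Each library was made from a pool of 3 whole embryos exposed for 96 h at 21 °C, starting near Nieuwkoop-Faber stage 29, about 48 h after fertilization, and ending at an age of 6 days. The groups, with 5 libraries each labelled A to E, were a water control, lead(II) nitrate at a level labelled 210 (lead 210) and lead(II) nitrate at a level labelled 630 (lead 630). No unit is given for the levels because the sample labels and the treatment protocol state different ones. The labels do not state whether pools within a group had dishes or parents in common, so p-values measure only the spread between pools, which may be technical. Because whole embryos were sequenced, fewer cells of a type and less RNA per cell cannot be told apart.

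Library totals ran from 12550450 to 24281267 counts in the control, from 13367463 to 22321568 at lead 210 and from 10824519 to 24656838 at lead 630. Levels are in CPM, counts scaled to a common library size with TMM factors, and they are not divided by gene length, so levels of different genes are not compared. A gene was called where its adjusted p from edgeR's quasi-likelihood test, with Benjamini-Hochberg adjustment over all genes tested, was under 0.05. Of the libraries, lead 210 E stood apart in its lens genes, whose summed level was 19.9% of the control mean. The defining genes of the retina were present: rho.L, the rod opsin, averaged 674 ± 106 CPM in control embryos, 552 ± 61.6 CPM at lead 210 and 626 ± 92.4 CPM at lead 630 (SD, n = 5 each). tyrp1.L, a melanin enzyme, averaged 109.6 ± 11.6 CPM in the control, 117 ± 11.6 CPM at lead 210 and 116 ± 19.5 CPM at lead 630. best1.L, a chloride channel that marks the pigment epithelium, was low, at 1.73 ± 0.414 CPM in the control, 1.63 ± 0.341 CPM at lead 210 and 1.53 ± 0.456 CPM at lead 630.

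At lead 630, 2 of the 9 visual cycle rows were lower than in control embryos and none was higher, against 2.28% of all genes tested that were called, 0.303% lower and 1.98% higher. Both act in the pigment epithelium: rdh5.L, an 11-cis-retinol dehydrogenase, and rpe65.L, the isomerase. Of the 7 further rows, rdh5.S and rgr.S were also lower and none was higher. The median log2 fold change was -0.25 over the 9 rows and -0.29 over the 7 further rows, beside -0.01 over all genes tested. All libraries of lead 630 lay below all control libraries in 2 of the 9 rows and in 2 of the 7 further rows, against 0.983% of all genes. Not passing were rpe65.S, lrat.L, rgr.L, rlbp1.L, rlbp1.S, stra6.L and stra6.S, as well as rdh10 and the members with photoreceptor roles.

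**Figure D1:**
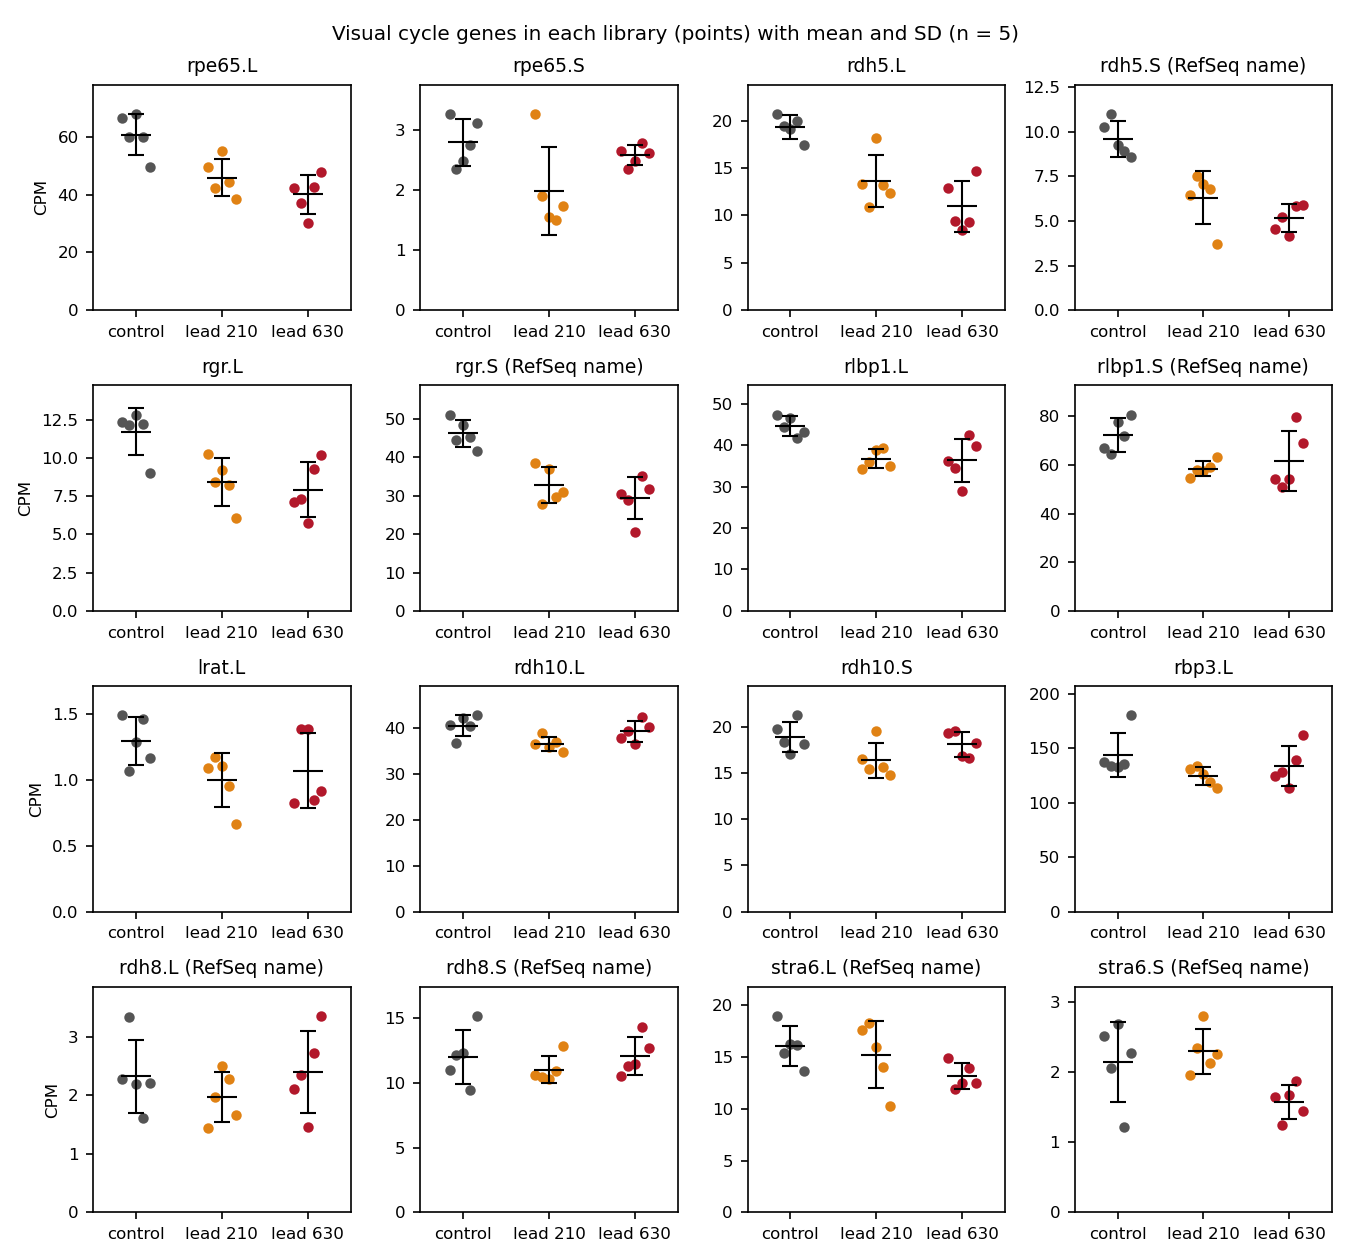
Level in CPM (y axis, from 0) of each visual cycle row in each library (points) of the control, lead 210 and lead 630 groups, with the mean and SD of 5 libraries; panels marked RefSeq name are the 7 further rows. The lead 630 points of rdh5.L, rdh5.S, rpe65.L and rgr.S all lie below the control points. In every other row, rgr.L, rlbp1.L, rlbp1.S, lrat.L, rpe65.S, stra6.L and stra6.S among them, the lead 630 and control points overlap.

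The isomerization step is carried out by rpe65, which turns all-trans-retinyl esters into 11-cis-retinol. In libraries A to E, rpe65.L (Entrez gene 447613) had 42.4, 37.2, 30.3, 42.6 and 47.7 CPM at lead 630, against 66.5, 59.9, 67.9, 60.0 and 49.6 CPM in the control. Every lead 630 library was below every control library, and the nearest pair, both labelled E, was 47.7 and 49.6 CPM. The fitted log2 fold change was -0.60 ± 0.12 (SE; adjusted p = 0.00775, edgeR quasi-likelihood), a level 34.2% lower. At lead 210 the 5 libraries had 49.4, 42.3, 54.9, 44.4 and 38.3 CPM, of which 4 were below all controls. The log2 fold change there was -0.41 ± 0.12 and did not pass (adjusted p = 0.107, edgeR).

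The other copy, rpe65.S, was read 21 to 63 times per library and averaged 2.57 ± 0.168 CPM at lead 630, against 2.79 ± 0.392 CPM in the control (SD, n = 5 each). Its groups overlapped, and its log2 fold change was -0.12, with a 95% interval of -0.52 to 0.28. At lead 210 it averaged 1.99 ± 0.730 CPM, and 4 of 5 libraries were below all controls (log2 fold change -0.50 ± 0.20, adjusted p = 0.276, edgeR). The .L copy gave 93.9% of the counts of the pair at lead 630, against 95.6% in the control. Whether the copies responded differently was tested on the log2 ratio of .L to .S: it differed by -0.50 at lead 630 (two-sided exact permutation p = 0.0159, adjusted p = 0.222 over 14 such tests). The smallest p that 5 libraries against 5 allow is 0.00794, which alone among 14 tests would become 0.111, so a difference in 1 pair of copies could not pass.

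The substrate of rpe65 is made by lrat, the enzyme that joins retinol to a fatty acid. With 9 to 33 reads per library, lrat.L had 0.823 to 1.38 CPM at lead 630, against 1.07 to 1.49 CPM in the control, and 0.663 to 1.17 CPM at lead 210. Its log2 fold change was -0.25 at lead 630, with a 95% interval of -0.72 to 0.22, and -0.38 at lead 210, with an interval of -0.86 to 0.10. At this depth the interval at lead 630 still holds the fold change found for rpe65.L.

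The last step, oxidation of 11-cis-retinol to 11-cis-retinal, is carried out by rdh5 among others. rdh5.L (Entrez gene 444623) had 12.9, 9.46, 8.51, 9.31 and 14.7 CPM in libraries A to E of lead 630, against 20.7, 19.5, 19.1, 19.9 and 17.4 CPM in the control. The groups did not overlap, and control libraries were the closer together, with an SD of 1.23 CPM against 2.68 CPM at lead 630. The log2 fold change was -0.82 ± 0.15 (adjusted p = 0.00313, edgeR quasi-likelihood), or 43.2% lower. At lead 210 rdh5.L had 13.3, 10.9, 18.2, 13.2 and 12.4 CPM. All but library C were below every control there, and the log2 fold change of -0.51 ± 0.15 did not pass (adjusted p = 0.0975, edgeR).

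The row that RefSeq names rdh5.S (Entrez gene 447549) had 4.57, 5.25, 4.15, 5.87 and 5.92 CPM at lead 630, against 10.3, 11.0, 9.26, 8.90 and 8.59 CPM in the control. Its log2 fold change was -0.89 ± 0.16 (adjusted p = 0.00227, edgeR), the lowest of the 16 rows at lead 630. At lead 210 it had 6.45, 7.54, 7.08, 6.82 and 3.71 CPM, all below the controls (-0.60 ± 0.16, adjusted p = 0.0562, edgeR). Summed over both copies, rdh5 stood at 55.8% ± 10.5 of the control mean at lead 630 and at 68.8% ± 11.7 at lead 210 (SD, n = 5 each). The .L share of the pair was 67.6% at lead 630, against 66.8% in the control, and the log2 ratio of the copies differed by 0.06 (exact permutation p = 0.730).

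RGR is an opsin of the pigment epithelium and Müller glia that binds all-trans-retinal. rgr.L (Entrez gene 444753) had 7.14, 7.32, 5.74, 9.25 and 10.2 CPM at lead 630, against 12.3, 12.1, 12.8, 12.2 and 8.98 CPM in the control. Libraries D and E of lead 630 overlapped control E, which was far below the other controls. The log2 fold change of -0.56 ± 0.16 did not pass (adjusted p = 0.0804, edgeR), nor did that of -0.48 ± 0.16 at lead 210 (adjusted p = 0.168, edgeR). The row that RefSeq names rgr.S (Entrez gene 494721) had 30.6, 28.9, 20.7, 35.1 and 31.9 CPM at lead 630, against 51.1, 44.5, 48.4, 45.4 and 41.7 CPM in the control. It was lower at lead 630 (log2 fold change -0.66 ± 0.12, adjusted p = 0.00365, edgeR), with no overlap. At lead 210 it had 38.4, 27.9, 36.9, 29.7 and 30.9 CPM, again all below the controls (-0.50 ± 0.12, adjusted p = 0.0353, edgeR).

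CRALBP, encoded by rlbp1, carries 11-cis retinoids in the pigment epithelium and Müller glia. rlbp1.L (Entrez gene 380078) had 36.2, 34.5, 28.9, 42.5 and 39.7 CPM at lead 630, against 47.3, 44.4, 46.6, 41.6 and 43.2 CPM in the control. Only library D of lead 630 reached the control range, yet the log2 fold change of -0.30 ± 0.08 did not pass (adjusted p = 0.0846, edgeR). At lead 210 the range was 34.3 to 39.3 CPM, below all controls, with a log2 fold change of -0.28 ± 0.08 (adjusted p = 0.117, edgeR). rlbp1.S ranged from 50.8 to 79.6 CPM at lead 630, against 64.6 to 80.7 CPM in the control. Its log2 fold change was -0.23 ± 0.10 (adjusted p = 0.358, edgeR) at lead 630 and -0.31 ± 0.11 (adjusted p = 0.193, edgeR) at lead 210.

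The remaining members analysed are rdh10, rbp3, rdh8 and stra6. rdh10, a retinol dehydrogenase that also feeds retinoic acid synthesis throughout the embryo, had 36.5 to 42.5 CPM (.L) and 16.6 to 19.5 CPM (.S) at lead 630, against 36.8 to 42.8 CPM and 17.1 to 21.2 CPM in the control. Its log2 fold changes were -0.05 ± 0.06 for rdh10.L, with a 95% interval of -0.17 to 0.08, and -0.06 ± 0.09 for rdh10.S, with an interval of -0.25 to 0.12. The lower ends of both intervals lie above the fold changes of rdh5.L, rdh5.S, rpe65.L and rgr.S at lead 630. At lead 210, where rdh10.L had 35.0 to 39.1 CPM and rdh10.S 14.7 to 19.5 CPM, the log2 fold changes were -0.15 ± 0.06 (adjusted p = 0.290, edgeR) and -0.21 ± 0.09 (adjusted p = 0.315), with 3 and 4 of 5 libraries below all controls.

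On the photoreceptor side, rbp3.L encodes the protein that photoreceptors secrete to shuttle retinoids across the space to the epithelium. It ranged from 114 to 162 CPM at lead 630, against 133 to 179.9 CPM in the control, with a log2 fold change of -0.11 ± 0.10 (adjusted p = 0.724, edgeR). At lead 210 it ranged from 113 to 134 CPM, with 4 of 5 libraries below all controls and a log2 fold change of -0.21 ± 0.10 (adjusted p = 0.382, edgeR). rdh8, the all-trans-retinal reductase of photoreceptor outer segments, had 10.5 to 14.3 CPM for rdh8.S at lead 630, against 9.47 to 15.1 CPM in the control. Its log2 fold change was 0.01, with a 95% interval of -0.24 to 0.25, and that of the rarer rdh8.L was 0.05, with an interval of -0.43 to 0.53. Neither photoreceptor gene passed at either level.

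stra6, the cell-surface receptor through which the pigment epithelium takes up retinol, did not pass at either level. stra6.L had 11.9 to 14.9 CPM at lead 630, against 13.6 to 18.9 CPM in the control, and 10.2 to 18.2 CPM at lead 210. Its log2 fold change was -0.29 ± 0.13 at lead 630 (adjusted p = 0.335, edgeR) and -0.08 ± 0.13 at lead 210 (adjusted p = 0.845, edgeR). stra6.S had 1.24 to 1.87 CPM at lead 630, against 1.21 to 2.69 CPM in the control (-0.47 ± 0.20, adjusted p = 0.311, edgeR). At lead 210 it had 1.96 to 2.80 CPM (0.07 ± 0.20 against the control, adjusted p = 0.926, edgeR). All its lead 630 libraries lay below all lead 210 libraries, as in 0.281% of all genes. The log2 fold change between the lead levels, -0.54 ± 0.20, did not pass over all genes (adjusted p = 0.932, edgeR).

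**Figure D2:**
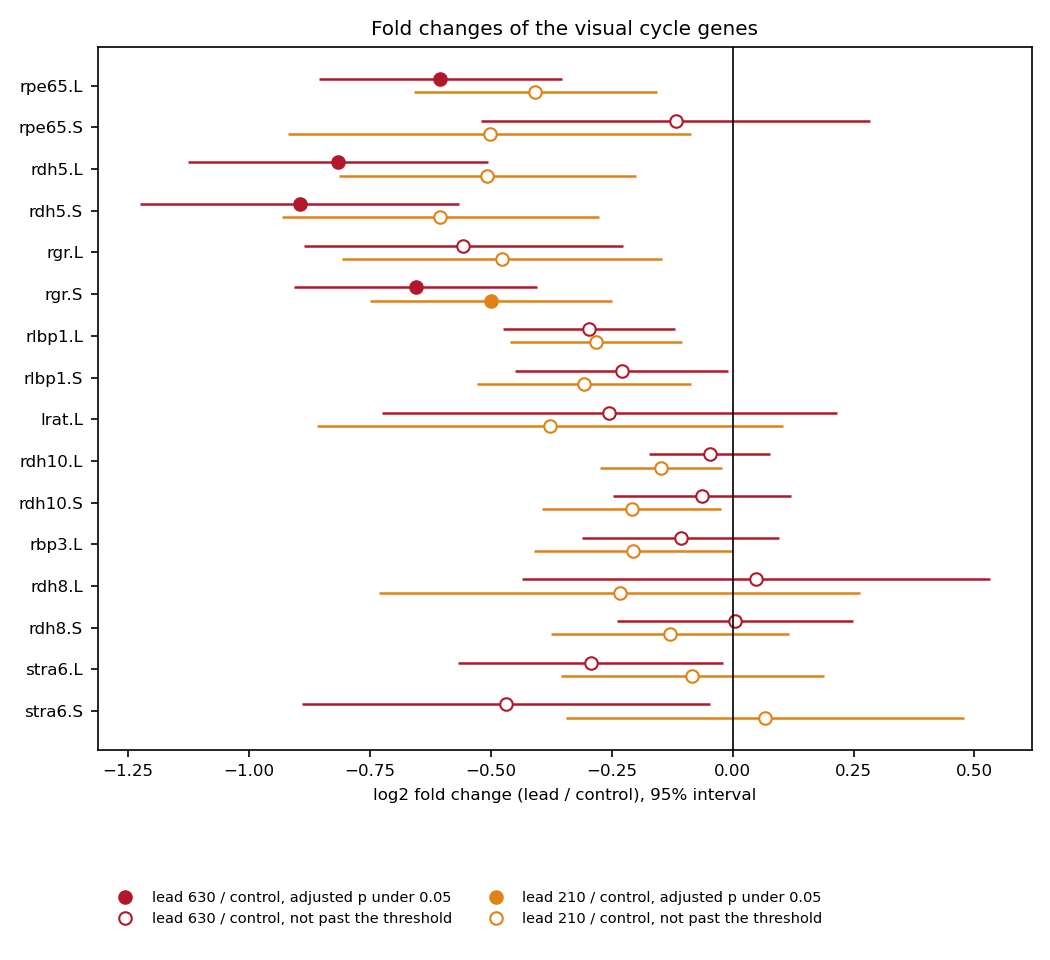
Log2 fold change of each visual cycle row (x axis) at lead 630 and at lead 210 against the control, with the 95% interval from the edgeR fit; filled points have an adjusted p under 0.05. The filled points are rpe65.L, rdh5.L, rdh5.S and rgr.S at lead 630 and rgr.S at lead 210. The intervals of rdh10, rbp3, rdh8, lrat.L and rpe65.S at lead 630 all cover 0. At lead 210 those of rdh10.L, rdh10.S, rbp3.L and rpe65.S lie below 0, while those of rdh8 and lrat.L cover it.

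At lead 210, 0 of the 9 rows passed in edgeR's test, against 1.9% of all genes tested that were called, 0.144% lower and 1.76% higher. An unadjusted p under 0.05 was found for 8 of the 9 rows and for 3479 of all 27060 genes, and DESeq2 called 2 of the 9 and 776 of 33798 genes. Of the 7 further rows rgr.S was lower. All libraries of lead 210 lay below all control libraries in 1 of the 9 rows, rlbp1.L, and in 3 of the 7 further rows, against 1.06% of all genes. The log2 fold changes of the 9 rows ran from -0.51 to -0.15, with a median of -0.38. The call of rgr.S at lead 210 held in 3 of the 10 fits that each left out 1 library and was lost without lead 210 B, D or E or control A, B, C or D (adjusted p up to 0.106). Without lead 210 E, the library low in lens genes, the log2 fold change was -0.48 for rgr.S (adjusted p = 0.0813, edgeR) and -0.46 for rdh5.S (adjusted p = 0.0701). Both lead levels were set against the same control libraries, so these values and those at lead 630 are not independent.

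With the 2 lead levels averaged and set against the control, 4 of the 9 rows were lower, beside 3.03% of all genes called, 0.443% lower and 2.59% higher: rdh5.L (-0.66 ± 0.12, adjusted p = 0.00378, edgeR), rpe65.L (-0.51 ± 0.10, adjusted p = 0.00716), rlbp1.L (-0.29 ± 0.07, adjusted p = 0.0336) and rgr.L (-0.52 ± 0.13, adjusted p = 0.0408). The further rows rdh5.S and rgr.S were lower too, and in these 2 rows all 10 lead libraries lay below all controls, against 0.177% of all genes. The calls of rgr.L and rlbp1.L depended on single libraries: leaving out 1 of the 15 at a time, rgr.L passed in 4 fits, those without lead 630 D, lead 630 E, lead 210 A or control E (highest adjusted p 0.119). rlbp1.L passed in 6, those without lead 630 C, D or E, lead 210 C or D, or control D (highest adjusted p 0.110). The call of rgr.L was also lost with the replicate letter as a block (adjusted p = 0.0713, edgeR), under which rlbp1.S was called (adjusted p = 0.0381), and that of rlbp1.L was lost with homeologs summed (adjusted p = 0.0533). rdh5.L, rdh5.S, rpe65.L and rgr.S passed in all 15 of these fits, and in all 10 such fits at lead 630.

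Lead 630 was also set against lead 210. None of the 9 or the 7 further rows passed in edgeR's test, in which 0 of all genes passed, 1260 genes had an unadjusted p under 0.05 and DESeq2 called 6, none of them among the 9. The log2 fold change of lead 630 over lead 210 was -0.31 for rdh5.L (95% interval -0.62 to 0.01) and -0.29 for rdh5.S (-0.63 to 0.05). That of rpe65.L was -0.20 (-0.45 to 0.06) and that of rgr.S -0.16 (-0.41 to 0.10). All 4 intervals cover 0, so a step between the levels was not detectable at this spread.

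The authors' deposited table, which holds their own fold changes and p-values, lists 3 of the 9 rows as lower at lead 630 at an adjusted p under 0.05: rdh5.L (adjusted p = 2.1e-05), rpe65.L (adjusted p = 0.000234) and rgr.L (adjusted p = 0.0415), beside 764 of all 28950 genes with an adjusted p there. At lead 210 the authors' deposited table lists 1 of the 9, rdh5.L (adjusted p = 0.0447), beside 690 of 28950 genes. Of the 7 further rows it lists 2 as lower at each level.

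Lists of genes named for other cells of the eye were read beside these genes. In whole embryos their levels can also come from cells outside the eye, so they do not measure those eye cells alone. Of 62 rows of other photoreceptor genes, 0 passed at lead 630 (lowest adjusted p 0.189, edgeR), with a median log2 fold change of 0.01 and 28 rows negative. At lead 210 the median was -0.14, with 51 of the 62 rows negative. There prph2.L, a structural protein of the outer segment discs, was lower (-0.36 ± 0.08, adjusted p = 0.0196, edgeR). That call was lost without lead 210 A or control E (adjusted p up to 0.0787) and with both prph2 copies summed (adjusted p = 0.217, edgeR). Of 21 rows of pigment epithelium genes outside the visual cycle, itgb5.L was lower at lead 630, with 9.73 to 13.3 CPM, against 13.6 to 19.6 CPM in the control (-0.56 ± 0.10, adjusted p = 0.00389, edgeR). It encodes an integrin subunit with which the epithelium takes up shed outer segments. With both itgb5 copies summed its fold change was -0.09 (adjusted p = 0.639, edgeR), and the list's median was -0.12 at lead 630 and -0.03 at lead 210, with 18 and 12 of the 21 rows negative. rrh.S, peropsin of the pigment epithelium, averaged 1.34 ± 0.283 CPM at lead 630, against 2.14 ± 0.449 CPM in the control (SD, n = 5 each), with 4 of 5 libraries below all controls. Its log2 fold change of -0.68 ± 0.25 did not pass (adjusted p = 0.217, edgeR), nor did that of -0.62 ± 0.28 for best1.S, the other copy of the channel gene (adjusted p = 0.357, edgeR). best1.S averaged 0.984 CPM at lead 630, and no lead 630 library of it lay below all controls. Other rows of the list differed less at lead 630: best1.L by -0.22, mertk.L by -0.13, otx2.L by -0.05 and otx2.S by -0.02, none of them called.

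None of 20 rows of melanin genes, shared by the pigment epithelium and skin melanophores, passed at either level, with medians of -0.04 at lead 630 and 0.02 at lead 210. Of 20 rows of Müller glia genes, sox9.S (-0.33 ± 0.08, adjusted p = 0.0253, edgeR) and sox9.L (-0.39 ± 0.10, adjusted p = 0.0461) were lower at lead 630. SOX9 is a transcription factor of Müller glia and pigment epithelium and of cartilage. Leaving out 1 library at a time, sox9.S passed in 5 of 10 fits (adjusted p up to 0.0763) and sox9.L in 2 (up to 0.122). The 25 rows of inner retinal neurons and the 19 rows of lens genes held no call, and the lens median was -0.34 at lead 630.

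Summed levels show how the lists stood beside the members. At lead 630 the photoreceptor list was at 96.2% ± 12.5 of its control mean, the other pigment epithelium list at 92.6% ± 6.2, the melanin list at 99.6% ± 6.8 and the lens list at 82.8% ± 26.1 (SD, n = 5 each). At lead 210 the same lists were at 88.1% ± 6.3, 99.5% ± 9.4, 103% ± 9.2 and 90.7% ± 42.3. The members stood at 65.9% ± 10.9 for rpe65.L, 64.5% ± 12.0 for both rgr copies, 83.8% ± 14.4 for both rlbp1 copies and 92.8% ± 12.8 for rbp3.L at lead 630. At lead 210 they stood at 75.5% ± 10.6, 71.1% ± 9.9, 81.4% ± 3.4 and 86.7% ± 5.8. No row of the 7 lists was at 0 in all 15 libraries. The part of these cell types in the members' differences was not tested. The ratios that follow set members against summed lists and cannot tell fewer cells from less RNA per cell. In the control the other pigment epithelium list summed to 321 CPM, of which rrh.S gave 2.14 CPM and best1.S 1.57 CPM.

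**Figure D3:**
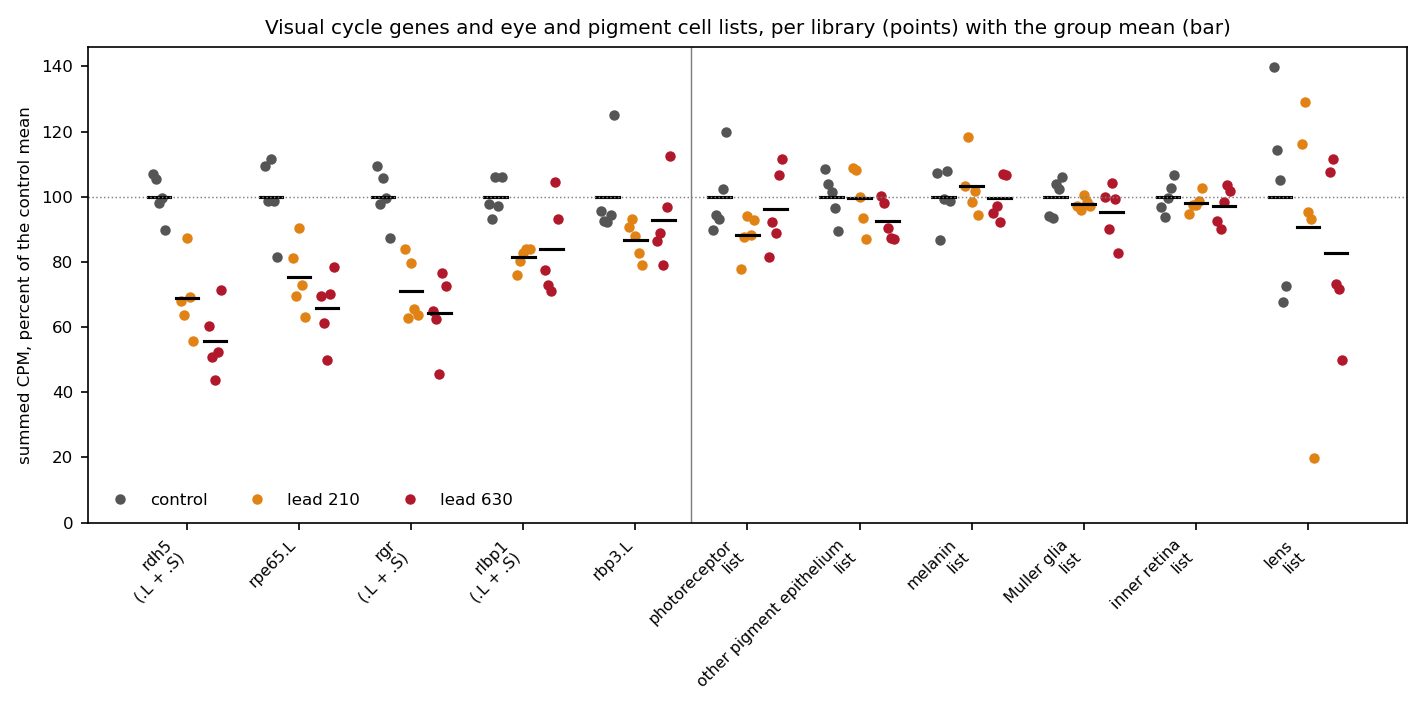
Summed CPM as a percent of the control mean (y axis, from 0) for visual cycle genes (left of the line) and lists of eye and pigment cell genes (right), in each library (points) with the group mean (bar). The lead 630 points of rdh5, rpe65.L and rgr lie between 43.8% and 78.5%, while those of the photoreceptor list lie between 81.6% and 111%, and the lens list has 1 point, lead 210 E, at 19.9%.

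Each of 7 member rows (rdh5.L, rdh5.S, rpe65.L, rgr.L, rgr.S, rlbp1.L and rlbp1.S) was divided by the summed level of a list in the same library, and the log2 ratios were compared by two-sided exact permutation tests, with p-values adjusted over 52 tests and a smallest possible p of 0.00794. The 7 rows include every member row called at lead 630 or lead 210. Dividing by a list near its control level keeps most of such a difference, so the ratios are no separate support for it. Relative to photoreceptor genes, 4 of the 7 rows were lower at lead 630: rdh5.L by -0.79 (adjusted p = 0.0344, exact test), rdh5.S by -0.85 (adjusted p = 0.0206), rgr.S by -0.61 (adjusted p = 0.0344) and rpe65.L by -0.55 (adjusted p = 0.0387). Relative to the other pigment epithelium genes 4 of the 7 were lower, and relative to melanin genes 6 of the 7. At lead 210, 0 of 7 passed relative to photoreceptors, 6 of 7 relative to the other pigment epithelium genes and 7 of 7 relative to melanin genes. The same ratios were not computed for all genes tested, so no share over all genes stands beside these counts. Adjustment over 52 tests of chosen rows is a milder threshold than adjustment over all genes, so these counts are not comparable with edgeR's calls. Of these 7 rows, edgeR's test called only rgr.S at lead 210. For rdh5.L relative to photoreceptors at lead 210 the difference was -0.35 (exact permutation p = 0.0635, unadjusted).

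Member rows were also divided by 1 other member, rlbp1.L, whose log2 fold change at lead 630 was -0.30 and did not pass. The 5 rows divided had log2 fold changes of -0.89 to -0.56 there, so the ratios restate that gap and are no separate support for it. Ratios to rlbp1.L were not computed for all genes. Divided by rlbp1.L in the same library, 4 of 5 rows were lower at lead 630. rdh5.S differed by -0.60 and rdh5.L by -0.54 (adjusted p = 0.0206 for both, exact tests), rgr.S by -0.36 (adjusted p = 0.0206) and rpe65.L by -0.30 (adjusted p = 0.0387). The fifth, rgr.L, differed by -0.27 and missed the threshold. At lead 210, 1 of 5 passed, rdh5.S by -0.36 (adjusted p = 0.0387, exact test). The share of counts from the .L copy was compared for rdh5, rpe65, rgr, rlbp1, rdh10, rdh8 and stra6 at both levels. None of the 14 tests passed after adjustment, which, given the smallest p these tests allow, does not show that the copies responded alike.

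Some members had their lowest value in the same library. Within lead 630, library C was the lowest of the 5 for rdh5.L, rdh5.S, rpe65.L, rgr.L, rgr.S, rlbp1.L, rbp3.L, rdh10.L and rdh8.L. B and C were the highest for lrat.L, while rlbp1.S, rpe65.S, stra6.L and stra6.S were lowest in B. Library E of the control was the lowest control for rdh5.L, rdh5.S, rpe65.L, rgr.L, rgr.S and stra6.L. It was the highest for rbp3.L, rdh8.S, rdh10.L and rlbp1.S, and its photoreceptor list stood at 120.0% of the control mean. The rows whose pattern was most like that of 6 pigment epithelium rows, by Pearson r over the 15 libraries after group means were taken off, were inpp5k.L (r = 0.856), pigw.S (0.839), opnpl.S (0.836), ppm1a.L (0.834), ndst2.L (0.833) and klhl2.S (0.828). Of the further rows that RefSeq names, rgr.S had r = 0.816, with 7 of 19982 named genes higher. Among the others, rdh5.S had 0.689, stra6.L 0.650, rdh8.L 0.406, rlbp1.S 0.130, stra6.S 0.061 and rdh8.S -0.27. The members rdh10.S, rbp3.L and rdh10.L, not among the 6 pigment epithelium rows, had 0.484, 0.363 and 0.354. Of the members with few reads, rpe65.S had r = 0.346 and lrat.L had 0.121. Both are among the 6 pigment epithelium rows (rpe65.L, rpe65.S, lrat.L, rdh5.L, rgr.L and rlbp1.L). Each was thus compared with a mean that contains it, unlike the other rows given here. Points of 1 library share its depth and its pool, and r is given as a description. The 6 genes listed first were picked as the highest of 19982 named genes, a choice that by itself favours high r. Of the 6 genes listed first, inpp5k.L, a phosphoinositide phosphatase, was lower at lead 630 (-0.28 ± 0.06, adjusted p = 0.0229, edgeR). That call held in 5 of 10 fits that left out 1 library (adjusted p up to 0.0697, edgeR). It was lost with only the groups compared (adjusted p = 0.0622, edgeR).

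Of other genes of retinoid metabolism, 57 rows outside the members are reported: 2 were lower and 5 higher at lead 630, and 0 were lower and 5 higher at lead 210, with medians of -0.06 and 0.00. The rises with the lowest adjusted p were in enzymes that act on retinol and retinal outside the cycle. aldh1a1.L, an aldehyde dehydrogenase that oxidizes retinal to retinoic acid, had 84.8 to 129 CPM at lead 630, against 30.3 to 46.7 CPM in the control (1.34 ± 0.13, adjusted p = 3.5e-06, edgeR). At lead 210 it had 80.6 to 109.6 CPM (1.22 ± 0.13, adjusted p = 1.5e-05). Over the 9 alternative ways of processing, its log2 fold change ran from 0.90 to 1.35 at lead 630. At lead 210 it ran from 0.77 to 1.23, and aldh1a1.L was called under all 9 at both levels. retsat.L, retinol saturase, which makes a dihydroretinol, averaged 35.7 ± 4.03 CPM at lead 630, against 19.2 ± 0.497 CPM in the control (SD, n = 5 each; 0.89 ± 0.07, adjusted p = 2.0e-07), and 31.8 ± 1.2 CPM at lead 210 (0.73 ± 0.07, adjusted p = 4.4e-06).

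Smaller rises were seen in scarb1.L, a lipoprotein receptor that takes up carotenoids, with 158 ± 25.5 CPM at lead 630, against 102 ± 17.4 CPM in the control (0.63 ± 0.14, adjusted p = 0.0218, edgeR), in sdr16c5.L, a retinol dehydrogenase (0.33 ± 0.07, adjusted p = 0.0195), and in dhrs7.L, a short-chain dehydrogenase (0.27 ± 0.07, adjusted p = 0.0468). Leaving out 1 library at a time, these calls held in 6, 5 and 2 of 10 fits, with adjusted p up to 0.0647, 0.0606 and 0.148. Fitted to only the groups compared, sdr16c5.L (adjusted p = 0.0648, edgeR) and dhrs7.L (adjusted p = 0.128) were not called, and dhrs7.L was also lost with RLE or upper-quartile factors, with no filter and with homeologs summed. All 3 also rose at lead 210, where the log2 fold changes were 0.67 for scarb1.L (adjusted p = 0.0178, edgeR), 0.33 for sdr16c5.L (adjusted p = 0.0234) and 0.33 for dhrs7.L (adjusted p = 0.0132). There the calls held in 8, 4 and 10 of the 10 fits that left out 1 library (adjusted p up to 0.0543, 0.0724 and 0.0412, edgeR). None of these 5 genes is a step of the visual cycle itself.

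Among the rows that fell, cyp27c1.S encodes the desaturase that gives fish and amphibian eyes their second form of vitamin A. It averaged 20.5 ± 3.36 CPM at lead 630, against 30.9 ± 6.26 CPM in the control (-0.60 ± 0.13, adjusted p = 0.0148, edgeR). The call was lost without library C of lead 630 (adjusted p = 0.0539, edgeR) and with only the groups compared (adjusted p = 0.0504, edgeR). The other, named after its values were seen, was ttr.L, transthyretin, a blood carrier of thyroid hormone. It had 13.8 to 26.1 CPM at lead 630, against 27.2 to 35.0 CPM in the control (-0.85 ± 0.20, adjusted p = 0.0329, edgeR). Leaving out 1 library at a time, it passed in 2 of 10 fits (adjusted p up to 0.101). The call of ttr.L was also lost with no filter on low counts, with the replicate letter as a block and with both ttr copies summed (adjusted p up to 0.316, edgeR).

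**Figure D4:**
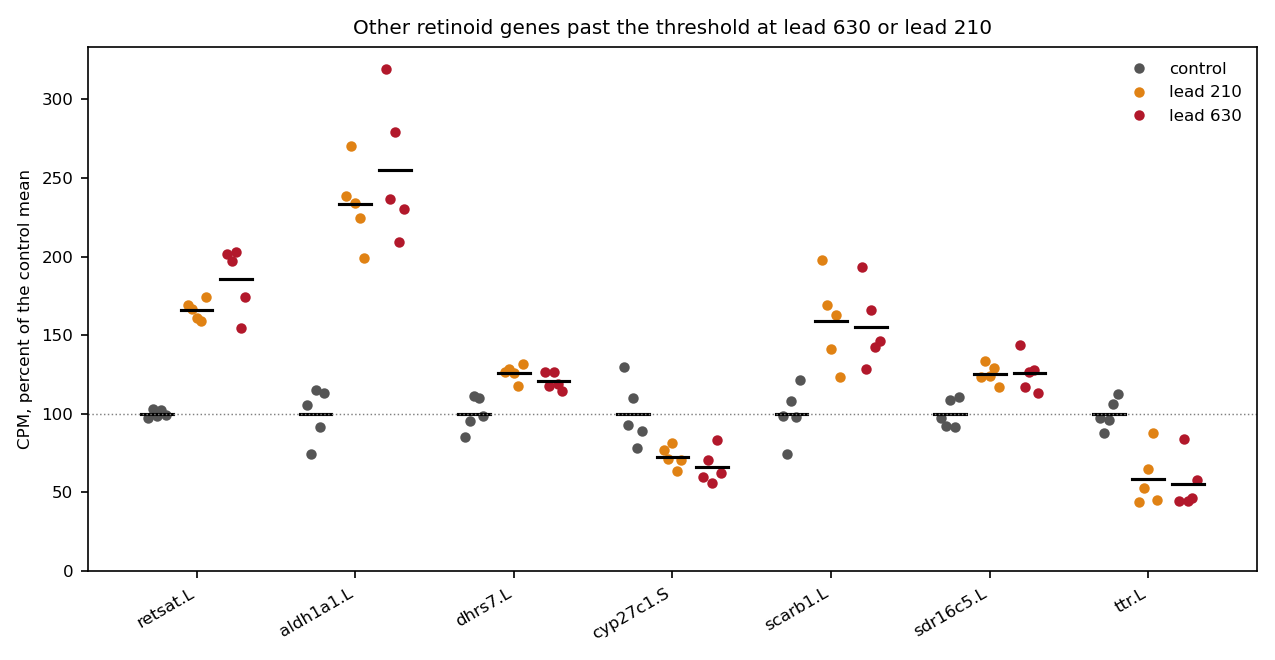
CPM as a percent of the control mean (y axis, from 0) for the 7 other retinoid genes reported as past the threshold at either level, in each library (points) with the group mean (bar). Points of aldh1a1.L, retsat.L, scarb1.L, sdr16c5.L and dhrs7.L at both lead levels lie above all controls. Those of ttr.L at lead 630 lie below all controls.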

How the data were processed

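The authors deposited raw counts for 37018 Entrez genes in 15 libraries and tables of their own comparisons, which hold log2 fold changes, log2 CPM, a likelihood-ratio score and p-values. Per the submitters' processing notes, Trim Galore, HISAT2, kallisto and edgeR were used; build, annotation, read counting and strand use are not stated, so how reads of near-identical .L and .S copies were assigned is unknown. Per the labels' protocols, poly(A) RNA and a directional kit were used. The genome build being unknown, no coordinates are given, and no sequences were read, so the planned promoter motif search and protein comparison were not run.

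The test was that of edgeR 4.0.16 (R 4.3.3): filterByExpr by group, TMM factors (0.977 to 1.03), 1 robust quasi-likelihood fit of the group alone to all 15 libraries, and adjustment over 27060 genes. The biological coefficient of variation was 0.142. Log2 CPM used a prior count of 2. The code was tested on simulated data. Replicate libraries differed by more than sampling noise, with a chi-square per gene of 4.11 to 16.3. A count of 3, taken as the floor, was 0.124 to 0.274 CPM. Alternatives used RLE and upper-quartile factors, other filters (none, or at least 1 CPM in 5 libraries), DESeq2 1.42.0, limma-voom (limma 3.58.1), only the groups compared, summed homeologs, the replicate letter as a block, and each library left out.

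The members and lists were chosen with earlier results of these data known. Named genes were every member row, up to 6 called rows of each other list by p, and the 6 rows most like 6 pigment epithelium members. Some uncalled marker rows of the eye, rrh.S and best1.S among them, are given outside this rule. Part of the list of other retinoid genes is not reported here.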

Additional observations from a re-analysis of the deposited data

Results flagged for a closer look

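In 5 of the 48 sets of 5 libraries (16 rows in 3 groups), 1 library lay far from the other 4 by Dixon's test, which chance does in about 1 of 20 sets. rbp3.L had 179.9 CPM in control E, while the other controls had 133 to 137 CPM. rgr.L had 8.98 CPM in control E, and 12.1 to 12.8 CPM in the other controls. Control E was also the lowest control for rpe65.L, rdh5.L, rdh5.S, rgr.S and stra6.L. In lead 210 E, rdh5.S had 3.71 CPM, against 6.45 to 7.54 CPM in the other lead 210 libraries, and rdh8.S had 12.8 CPM, against 10.2 to 10.9 CPM. rpe65.S had 3.26 CPM in lead 210 A and 1.5 to 1.9 CPM in the other lead 210 libraries.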

How the results depend on the processing

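rdh5.L, rdh5.S, rpe65.L and rgr.S were lower at lead 630 under all 9 alternatives and in all 10 fits that left out 1 library, with adjusted p of at most 0.0124, 0.0115, 0.0393 and 0.0133. No row called in the main fit changed direction. DESeq2 called 4 of the 9 rows at lead 630 and 2 at lead 210, 776 genes in all at lead 210 and 6 between the lead levels. At lead 210, a fit of only the groups compared called 2 of the 9 (534 of 26609 genes), and summed homeologs called 2 of 7 (424 of 20043 genes). With the 7 further rows, an alternative added after the data were seen, the count was 4 at lead 630 and 1 at lead 210. Leaving out 1 library at a time, the 9 rows held 2 to 3 calls at lead 630, 0 to 1 at lead 210 and 2 to 4 with the levels averaged; all genes held 439 to 697, 355 to 488 and 539 to 952, and 0 to 1 between the lead levels. Deviations of same-letter libraries of different groups correlated over 0.1 in 8 of 15 pairs (-0.135 to 0.334, median 0.131), against 11 of 60 different-letter pairs (median -0.013). As not every same-letter pair was over 0.1, the block was kept as an alternative. Same-letter pairs were still the more often over 0.1, so this choice does not show that libraries of 1 letter share nothing. With the letter as a replicate block, 2 of the 9 rows were called at lead 630, 0 at lead 210 and 3 with the levels averaged, and 748, 691 and 1030 of all genes; rgr.S at lead 210 was not called under it (adjusted p = 0.0563). Lower calls over all genes were 82 at lead 630 and 39 at lead 210, against 191 and 115 with DESeq2 and 142 and 88 with the replicate block. Depth limits lrat.L, rpe65.S, rdh8.L and stra6.S, which had 9 to 81 reads per library.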

Other observations

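Replicate letters went with the summed level of the list of pigment epithelium genes outside the visual cycle. In whole embryos this sum need not measure the pigment epithelium, and in the control rrh.S gave 2.14 CPM of it and best1.S 1.57 CPM. The list summed to 349, 334, 325, 309.9 and 288 CPM in libraries A to E of the control, 349, 348, 321, 300.3 and 279.5 CPM in lead 210, and 322, 315, 291, 281 and 279 CPM in lead 630. Library A was the highest and library E the lowest in each of the 3 groups. The lens list was also lowest in library E in both lead groups, at 237 CPM in lead 210 and 597 CPM in lead 630, while its lowest control was D, at 811 CPM. What the letters mark is not given in the labels, and its part in the levels of the members was not tested beyond the replicate block. Under that block rdh5.L (log2 fold change -0.82, adjusted p = 0.0108, edgeR) and rpe65.L (-0.60, adjusted p = 0.0393) remained lower at lead 630.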
